A study of Mus musculus with 4 samples.

Results

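The interferon-induced genes described here were 32 genes taken from a list of symbols, 23 of them known mainly as type I interferon targets and 9 mainly as interferon-gamma targets. A row with the symbol was found for 31 of the 32 among the 32285 genes counted: 22 type I members and all 9 interferon-gamma members. Mx1 was not analysed here. The study compared pancreatic islets of wild-type and Malat1-/- mice, both labelled C57BL/6, after exposure in culture to TCDD (2,3,7,8-tetrachlorodibenzo-p-dioxin, a persistent dioxin and a ligand of the aryl hydrocarbon receptor) or to DMSO, its solvent. Malat1 is a long noncoding RNA that is retained in the nucleus. Islets were isolated with collagenase, kept in RPMI medium with serum, dissociated, and profiled with droplet-based 3′ single-cell RNA sequencing. The values below come from 1 TCDD-treated wild-type library and 1 TCDD-treated Malat1-null library. Counts of the 2 DMSO libraries were not analysed here. Dose and duration of TCDD, the kind of null allele, and the age, sex and number of mice behind each library are not given in the sources used here. With 1 library per genotype no test between genotypes was possible, so genotype, mouse, islet preparation and library cannot be told apart, and every interval below covers counting error only.

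Interferons are secreted proteins that warn cells of viral infection. Type I interferons bind the IFNAR1 and IFNAR2 receptor, and the kinases JAK1 and TYK2 then start a signal through STAT2 and IRF9 that ends at interferon-stimulated response elements (ISRE). Interferon-gamma, made mainly by T and NK cells, binds IFNGR1 and IFNGR2, and its signal ends at gamma-activated sites (GAS) and induces IRF1. In islets, interferon-induced genes are best known from insulitis in type 1 diabetes and from viral infection, where beta cells themselves respond.

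Promoter sequences were matched by symbol to RefSeq (build GRCm38.p6, 250 bases before to 50 bases after each transcript start). Of the 32 members, 24 had an entry. Rtp4, Ifi27, Zbp1, Iigp1, Parp14, Mx1, Usp18 and Gbp6 had none. The ISRE letters (GAAA, any 2 bases and GAAA again, read on both strands) occurred in 10 of the 17 type I members with a promoter (58.8%) and in 5 of the 7 interferon-gamma members (71.4%), against 3.44% of all 32851 promoters of the same 300-base length. The GAS letters (TTCNNNGAA, which read the same on both strands) occurred in 5 of the 17 type I members (29.4%) and in 3 of the 7 interferon-gamma members (42.9%), against 8.30% of all promoters. Gbp3, Ifit2, Irf1 and Irf9 had more than a single entry, and a member counted when any of its entries held the letters. The shares of all promoters count each entry by itself, so the shares are not fully alike. Such a match is a description of the letters and not of a binding site. Ifi35, Ifi44, Ifit2, Irf7, Irf9, Oasl2 and Xaf1 of the type I members and Ifi47 and Irf1 of the interferon-gamma members held no ISRE letters in this window.

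Below are 4 promoters of members on which the results turn: Ifit1, lower in Malat1-null beta-like cells; Irf1, higher in them; Ifih1, highest in alpha-like cells; and Igtp, high in T- or NK-like cells. Each is written 5′ to 3′ along the strand of its gene, with ISRE and GAS letters in capitals.
Ifit1 (chr19:34640639-34640938, plus strand): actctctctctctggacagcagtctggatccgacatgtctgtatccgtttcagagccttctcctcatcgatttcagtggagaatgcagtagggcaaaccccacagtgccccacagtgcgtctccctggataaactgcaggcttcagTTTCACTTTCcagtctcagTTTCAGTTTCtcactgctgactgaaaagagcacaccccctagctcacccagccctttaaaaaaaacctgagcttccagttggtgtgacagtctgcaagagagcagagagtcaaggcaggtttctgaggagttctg
Irf1 (chr11:53769764-53770063, plus strand): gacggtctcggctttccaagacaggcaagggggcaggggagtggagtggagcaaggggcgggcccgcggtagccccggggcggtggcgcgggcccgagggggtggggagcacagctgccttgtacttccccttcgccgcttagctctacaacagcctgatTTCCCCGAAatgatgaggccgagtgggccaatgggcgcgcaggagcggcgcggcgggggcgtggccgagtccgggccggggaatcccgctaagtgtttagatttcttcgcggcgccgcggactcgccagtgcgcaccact
Ifih1 (chr2:62646206-62646505, minus strand): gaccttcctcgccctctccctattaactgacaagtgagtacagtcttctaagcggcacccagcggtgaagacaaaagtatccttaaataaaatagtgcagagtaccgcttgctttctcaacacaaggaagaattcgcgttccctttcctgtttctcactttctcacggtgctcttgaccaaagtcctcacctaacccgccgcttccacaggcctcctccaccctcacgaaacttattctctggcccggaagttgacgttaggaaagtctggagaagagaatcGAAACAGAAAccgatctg
Igtp (chr11:58199306-58199605, plus strand): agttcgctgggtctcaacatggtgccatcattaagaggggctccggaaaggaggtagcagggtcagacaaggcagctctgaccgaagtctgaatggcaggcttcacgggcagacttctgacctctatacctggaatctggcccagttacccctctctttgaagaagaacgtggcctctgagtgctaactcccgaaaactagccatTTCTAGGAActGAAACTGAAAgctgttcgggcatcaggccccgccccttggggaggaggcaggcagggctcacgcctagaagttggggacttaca
The Ifit1 stretch holds 2 ISRE matches and no GAS match. The Irf1 stretch holds 1 GAS match and no ISRE match. It was chosen for its match, and the other Irf1 entry (chr11:53770223-53770522) holds neither kind. That of Ifih1 holds 1 ISRE match, and that of Igtp holds 1 of each kind.

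The wild-type library held 2166 barcodes with at least 1000 UMIs (unique molecular identifiers, the counted RNA molecules) and the Malat1-null library 3198, with medians of 26116 and 34038 UMIs. Their barcode lists shared 1 sequence. After filters 2074 and 2905 barcodes remained. They were grouped without using the interferon-induced genes, Malat1, sex-linked genes or mitochondrially encoded genes, and clusters were named from marker genes. The labels call the material beta cells, but beta-like barcodes made up 44.0% of the wild-type and 61.2% of the Malat1-null barcodes used. Malat1 itself, which checks the labels, gave 555055 UMIs in beta-like cells of the wild-type library and 26 in those of the Malat1-null library. Beta-like barcodes numbered 912 and 1777, T- or NK-like 295 and 156, B cell-like 193 and 308, endothelial-like 87 and 40, ductal-like 133 and 17, macrophage-like 14 and 41, and alpha-like 22 and 36, the wild-type number first. Acinar-like barcodes numbered 266 and 42. Delta-like, PP-like and mesenchymal-like cells had 15 to 30 barcodes in a library. A further 85 and 412 barcodes stayed unnamed. Levels are CPM, UMIs per 1e+06 UMIs after TMM scaling over all class sums, and pairs of values give the wild-type library first.

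Across cell classes, the interferon-gamma members had their highest summed level in T- or NK-like cells. There it was 416 CPM in the wild-type library and 449 CPM in the Malat1-null library, against 71.1 and 78.4 CPM in beta-like cells. Of the 9 members, 8 were beyond 2-fold above beta-like cells in both libraries with intervals that excluded 1. Of all genes, 13.6% met the same rule in T- or NK-like cells. The median log2 ratio to beta-like cells in the wild-type library was 2.98 over the 9 members and -0.31 over all genes. The count was 8 of 9 with total-count scaling and 6 with each of the other alternatives of depth, scaling and classes, of 8 or 9 measured. The share of all genes was 24.5% with total-count scaling and ran from 8.64% to 12.1% with the others. Gene by gene, 13 of the 31 members had the same highest class in both libraries: T- or NK-like cells for 6, macrophage-like for 4, and alpha-like, B cell-like and mesenchymal-like cells for 1 each. Only Bst2, Ifitm3 and Ifi47 were clear of the next class by their intervals in both libraries, and no member was highest in beta-like cells in both.

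Ifi47, an interferon-inducible GTPase, was the clearest case. In T- or NK-like cells it stood at 98.5 CPM (95% interval 84.9 to 114) and 95.9 CPM (74.6 to 121). In beta-like cells it gave 2 and 11 UMIs, or 0.0494 and 0.189 CPM. With every barcode thinned to 1000 UMIs, 10.2% of wild-type and 10.3% of Malat1-null T- or NK-like barcodes held an Ifi47 UMI (unthinned 35.3% and 28.8%), and none of the thinned beta-like barcodes did, which allows up to 0.404% and 0.207% by the exact Clopper-Pearson limit. Ifi47 was next highest in macrophage-like cells in wild type (30.2 CPM) and in B cell-like cells in Malat1-null (39.5 CPM), both below the T- or NK-like interval.

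The other immunity-related GTPases were also above beta-like cells in T- or NK-like cells. Igtp, which acts against vacuoles that hold intracellular parasites, was at 36.1 and 48.6 CPM in T- or NK-like cells, against 4.59 and 5.12 CPM in beta-like cells. Iigp1 was at 28.3 and 9.73 CPM there, against 0.543 and 0.223 CPM. Irgm1, a regulator of this GTPase family, was at 26.7 and 30.6 CPM, against 11.5 and 8.01 CPM in beta-like cells, so that its ratio was the smallest of these GTPases.

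Among the guanylate-binding proteins, GTPases that coat and break pathogen vacuoles, Gbp2, Gbp3 and Gbp7 were above beta-like cells in both libraries and Gbp6 in the Malat1-null library alone. Gbp3 was 18.1-fold higher (12.5 to 26.1) in wild-type and 38.0-fold higher (22.1 to 63.5) in Malat1-null T- or NK-like cells. Gbp2 was 10.7-fold (7.90 to 14.3) and 9.17-fold (6.19 to 13.2) higher. Gbp6 was at 9.43 and 20.8 CPM in T- or NK-like cells against 12.3 and 7.22 CPM. Gbp7 was at 33.0 and 20.8 CPM, against 11.5 and 10.4 CPM. Irf1, the transcription factor that interferon-gamma induces directly, was at 117 and 145 CPM in T- or NK-like cells, 4.56-fold and 3.49-fold above beta-like cells.

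**Figure D1:**
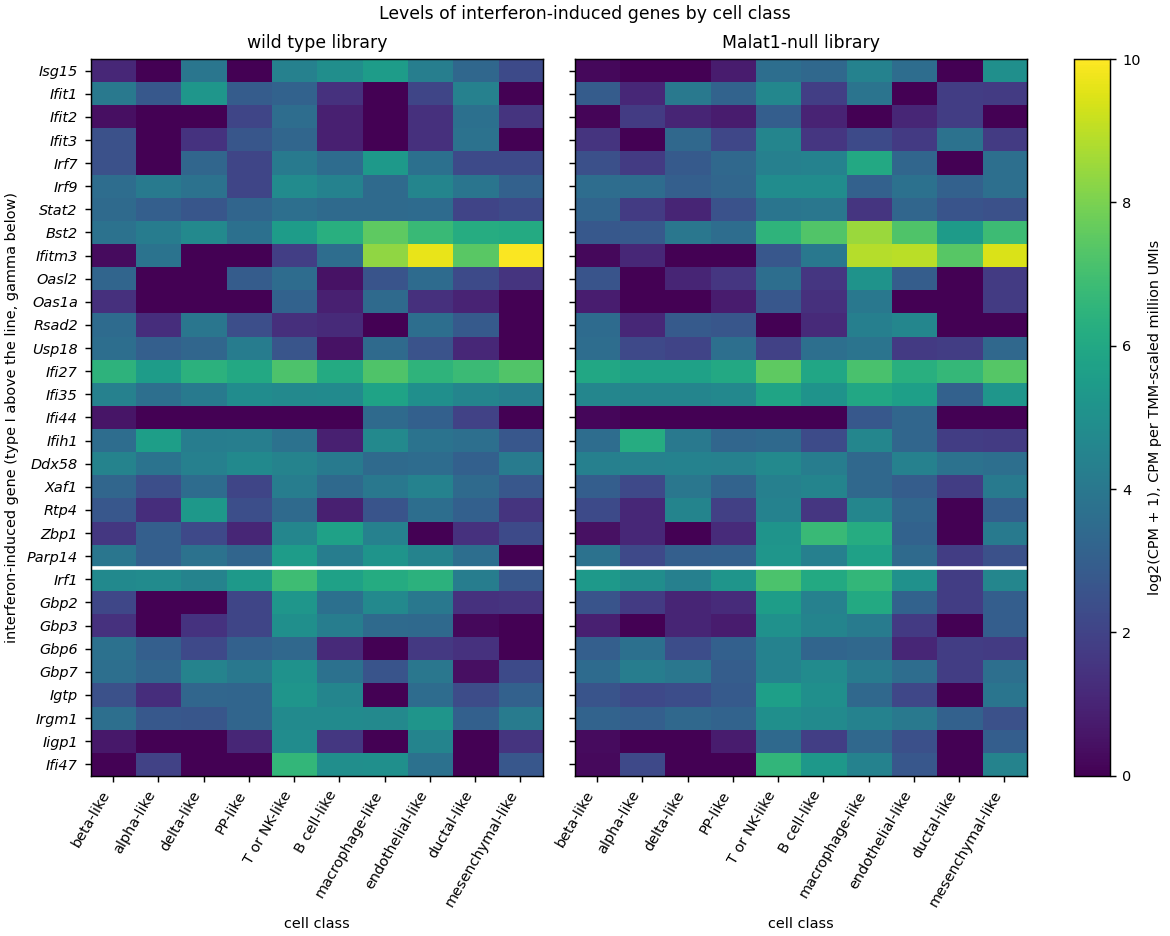
Level of each of 31 interferon-induced genes (rows, type I above the line, interferon-gamma below) in 10 cell classes (columns) of the wild-type library (left) and the Malat1-null library (right), as log2(CPM + 1). Ifi47 is brightest under T- or NK-like cells (98.5 and 95.9 CPM), and Ifitm3 is brightest in mesenchymal-like (970 and 685 CPM) and endothelial-like cells (813 and 498 CPM).

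B cell-like cells were above beta-like cells for 6 of the 9 interferon-gamma members (Gbp2, Gbp3, Igtp, Irgm1, Iigp1 and Ifi47) and 5 of 20 type I members (Isg15, Irf7, Bst2, Ifitm3 and Zbp1). For all genes the share was 15.6%. Zbp1, a sensor of Z-form nucleic acids that can start necroptosis, was at 51.7 and 109 CPM in B cell-like cells, against 2.1 and 0.361 CPM in beta-like cells. The B cell-like class held 2 clusters, and Zbp1 was uneven between them. In the cluster led by Igkc and Jchain, immunoglobulin genes of antibody-secreting cells, it was at 83.8 and 146 CPM, and in the cluster with Cd79a among its markers at 23.0 and 35.7 CPM. Isg15 was at 29.8 and 9.47 CPM and Ifi47 at 29.4 and 39.5 CPM. Below beta-like cells in both libraries were Ifit1, Oasl2, Rsad2 and Ifih1, where the share of all genes lower was 23.5%. The Ifitm3 UMIs of the Malat1-null B cell-like cells are uncertain: 46 were counted, and free RNA alone could give up to 35.2 of them, judged by the Ins2 in these cells.

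Macrophage-like cells were above beta-like cells for Isg15, Irf7, Bst2, Ifitm3, Ifi35, Zbp1, Irf1 and Gbp2, 8 of 27 members measured, against 7.96% of all genes. None was below, where 8.52% of all genes were. They had the highest Bst2 level of the classes in both libraries, with intervals clear of the next class. Bst2, or tetherin, holds budding virus particles at the cell surface. In macrophage-like cells it was at 181 CPM (127 to 251) and 359 CPM (309 to 413). Irf7, the factor that amplifies type I interferon genes, was at 40.3 and 64.5 CPM there, against 4.62 and 4.43 CPM. Ifitm3 was at 327 and 470 CPM and Isg15 at 45.3 and 20.9 CPM. The wild-type values rest on 14 barcodes. Irf7, Bst2 and Ifitm3 kept their calls under every alternative of scaling, clustering and depth that was run. With a minimum of 5000 UMIs the calls of Isg15 and Zbp1 were lost, and without hormone UMIs those of Ifi35 and Irf1. At Leiden resolution 2 and with marker classes the calls of Isg15, Ifi35, Irf1 and Gbp2 were lost. At that resolution the macrophage-like cluster held 9 and 26 barcodes. A separate cluster of 5 and 15 barcodes, with Fscn1 and Ccr7 among its leading genes, was named dendritic. The macrophage-like values, here and between genotypes, may therefore include dendritic cells.

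Endothelial-like, mesenchymal-like and ductal-like cells shared Ifitm3 and Bst2 and little else. Ifitm3, a membrane protein that blocks the fusion of viruses with endosomes, was at 813 and 498 CPM in endothelial-like, 970 and 685 CPM in mesenchymal-like and 175 and 169 CPM in ductal-like cells. In beta-like cells it was at 0.222 and 0.155 CPM, 9 UMIs in each library. In endothelial-like cells Rtp4, a chaperone of receptor trafficking, was the third and last member above beta-like cells, 2.03-fold and 2.38-fold, a call lost without hormone UMIs, at Leiden resolution 2 and with marker classes. Ifit1, Usp18 and Gbp6 were below. In ductal-like cells the third was Ifit3, 2.78-fold and 7.09-fold, with 5 UMIs behind the Malat1-null value. Bst2 was at 67.4 and 116 CPM in mesenchymal-like cells, where Rsad2 was the member below. For all genes the shares above and below beta-like cells were 14.8% and 18.0% in endothelial-like, 9.93% and 13.8% in mesenchymal-like and 10.7% and 12.1% in ductal-like cells. The endothelial-like count depended on scaling: with total counts 10 members were above, as were 32.7% of all genes.

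The endocrine classes other than beta differed from beta-like cells in single genes. Ifih1, which encodes the RNA sensor MDA5, was at 47.9 CPM (33 UMIs) in wild-type and 72.5 CPM (61 UMIs) in Malat1-null alpha-like cells. It was at 10.9 and 11 CPM in beta-like cells, so that alpha-like cells were 4.38-fold (2.98 to 6.24) and 6.61-fold (4.99 to 8.60) higher. It was the only member above beta-like cells in the alpha-like class, where 2.87% of all genes were, and it kept that call under every alternative of scaling, clustering and depth that was run. Oasl2 and Rsad2 were lower in alpha-like cells in both libraries, where 5.89% of all genes were. In delta-like cells Rtp4 was 7.12-fold and 5.82-fold higher than in beta-like cells, with 22 and 21 UMIs. Ifit1 was 2.40-fold and 2.35-fold higher there, and single barcodes gave 9 of its 21 and 8 of its 15 UMIs. This Ifit1 call was lost with a minimum of 5000 UMIs, at Leiden resolution 2 and with marker classes, where Rtp4 kept its call. No member was apart from beta-like cells in PP-like cells in both libraries, where the Ins2 bound on free RNA was 3.84% and 40.8%. For all genes the shares higher and lower were 2.9% and 4.3% in delta-like and 2.29% and 3.23% in PP-like cells.

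Rsad2 and Usp18 were lower in T- or NK-like than in beta-like cells. Rsad2, or viperin, which makes a chain terminator of viral RNA synthesis, gave 417 and 603 UMIs in beta-like cells (10.3 and 10.4 CPM) but 3 and 0 UMIs in T- or NK-like cells. Usp18, the protease that removes ISG15 and damps the type I receptor, stood at 11.1 and 10.8 CPM, against 5.24 and 2.78 CPM in T- or NK-like cells, a call that was lost with 5000 UMIs and with total counts. Of all genes, 20% were lower in T- or NK-like than in beta-like cells in both libraries. The type I members above beta-like cells there were Irf7, Irf9, Bst2, Oas1a, Zbp1 and Parp14, 6 of 18 measured.

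**Figure D2:**
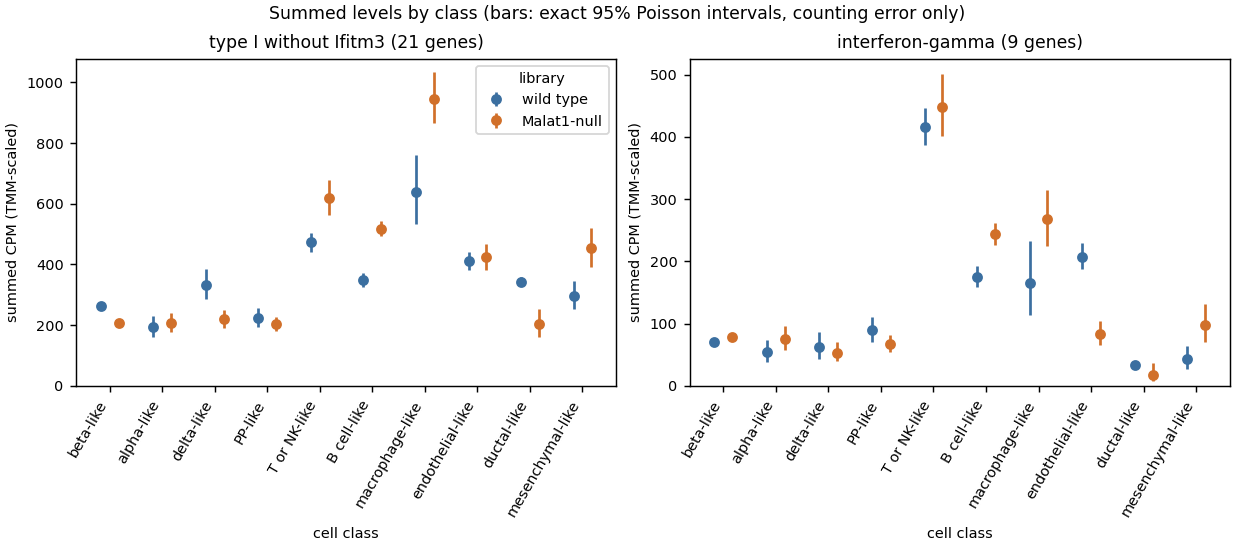
Summed CPM of 21 type I members without Ifitm3 (left) and of 9 interferon-gamma members (right) in each cell class, wild type in blue and Malat1-null in orange, with exact 95% Poisson intervals. The interferon-gamma sum is highest in T- or NK-like cells (416 and 449 CPM), and the type I sum without Ifitm3 is highest in macrophage-like cells (639 and 947 CPM).

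Between genotypes, beta-like cells of the Malat1-null library had lower levels of 11 members, among them Isg15, Ifit1, Ifit3 and Bst2, and a higher level of Irf1. A member was called apart when its ratio was beyond 1.5-fold and the exact interval excluded 1, with at least 20 UMIs over both libraries. Of 31 members 28 were measured: 11 were lower in Malat1-null, 1 was higher and 16 were not apart. Of all 14191 genes measured in beta-like cells, 6.01% were lower and 3.81% were higher. The median log2 ratio was -0.41 over the members measured and 0.01 over all genes. Of the 20 type I members measured, 8 were lower and none higher, and of the 8 interferon-gamma members 3 were lower and 1 higher.

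Isg15, the ubiquitin-like modifier, had the lowest ratio, with 47 UMIs in 32 wild-type barcodes and 9 UMIs in 9 Malat1-null barcodes (1.16 and 0.155 CPM), 7.51-fold lower (3.64 to 17.4). Zbp1 gave 85 and 21 UMIs and was 5.82-fold lower (3.57 to 9.88). Both were rare RNAs, seen in few beta-like barcodes of either library.

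The Ifit proteins bind viral RNA that lacks the host cap. Ifit1 was the best counted of them, with 635 wild-type and 382 Malat1-null UMIs, or 15.7 CPM (14.5 to 17) and 6.57 CPM (5.92 to 7.26). It was 2.39-fold lower (2.1 to 2.72) in Malat1-null. Ifit3, at 4.52 and 1.80 CPM, was 2.50-fold lower (1.96 to 3.22). Ifit2 did not reach 20 UMIs, with 13 and 5. These 3 genes lie together on chromosome 19 (Ifit1 at 34640871 to 34650009 in GRCm38), the chromosome that also carries Malat1. Any part of this position in their levels was not tested. Reads shared with Ifit3b, a near copy with 122 and 67 UMIs over all classes, make the Ifit3 counts less certain.

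Bst2 was at 12.6 and 5.81 CPM, 2.17-fold lower (1.89 to 2.50). A single wild-type barcode gave 55 of its 510 UMIs. Oas1a and Oasl2, of the family whose active members make the activator of RNase L, were 2.16-fold (1.45 to 3.23) and 1.68-fold (1.43 to 1.97) lower, from 1.63 to 0.756 CPM and from 8.55 to 5.09 CPM. Ifi44 was 3.59-fold lower (1.52 to 9.43) on 20 and 8 UMIs, of which single barcodes gave 8 and 7, so that the call rests on few cells.

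The transcription factors among the type I members were not apart between the libraries. Irf9 was at 10.9 and 10.8 CPM, Stat2 at 10.1 and 8.40 CPM and Irf7 at 4.62 and 4.43 CPM. The intervals of their ratios were 0.875 to 1.12, 0.728 to 0.951 and 0.792 to 1.17. The RNA sensors Ifih1 (10.9 and 11 CPM, ratio interval 0.888 to 1.14) and Ddx58, which encodes RIG-I (21.3 and 19.4 CPM, 0.834 to 0.997), were not apart either. Nor were Usp18 (0.970, 0.858 to 1.10) and Rsad2 (1.01, 0.887 to 1.14). Ifi27, the most abundant member in beta-like cells by UMIs, was at 87.5 and 63.2 CPM (ratio 0.722, 0.690 to 0.757), which lies inside 1.5-fold. Rtp4 (5.53 and 3.71 CPM), Xaf1 (8.92 and 6.99 CPM), Parp14 (14.3 and 12.5 CPM) and Ifi35 (19.9 and 23.1 CPM) had ratios of 0.671 to 1.16 and were not apart.

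Among the interferon-gamma members Irf1 was the exception in direction, with 1038 and 2407 UMIs, or 25.6 CPM (24.1 to 27.2) and 41.4 CPM (39.7 to 43.1). It was 1.61-fold higher (1.5 to 1.74) in Malat1-null. With total-count scaling, which shifted the median of all genes to -0.18, its log2 ratio was 0.50 in place of 0.69 and it was no longer beyond 1.5-fold. Gbp3, Gbp6 and Iigp1 were 1.99-fold (1.36 to 2.94), 1.70-fold (1.49 to 1.94) and 2.43-fold (1.17 to 5.26) lower, Iigp1 on 22 and 13 UMIs. Gbp2 had a ratio of 1.46 (1.19 to 1.80, from 3.43 and 5.0 CPM), Igtp of 1.11, Gbp7 of 0.907 and Irgm1 of 0.699, all inside 1.5-fold. The GTPases of this group therefore had ratios on both sides of 1 within the same cells.

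**Figure D3:**
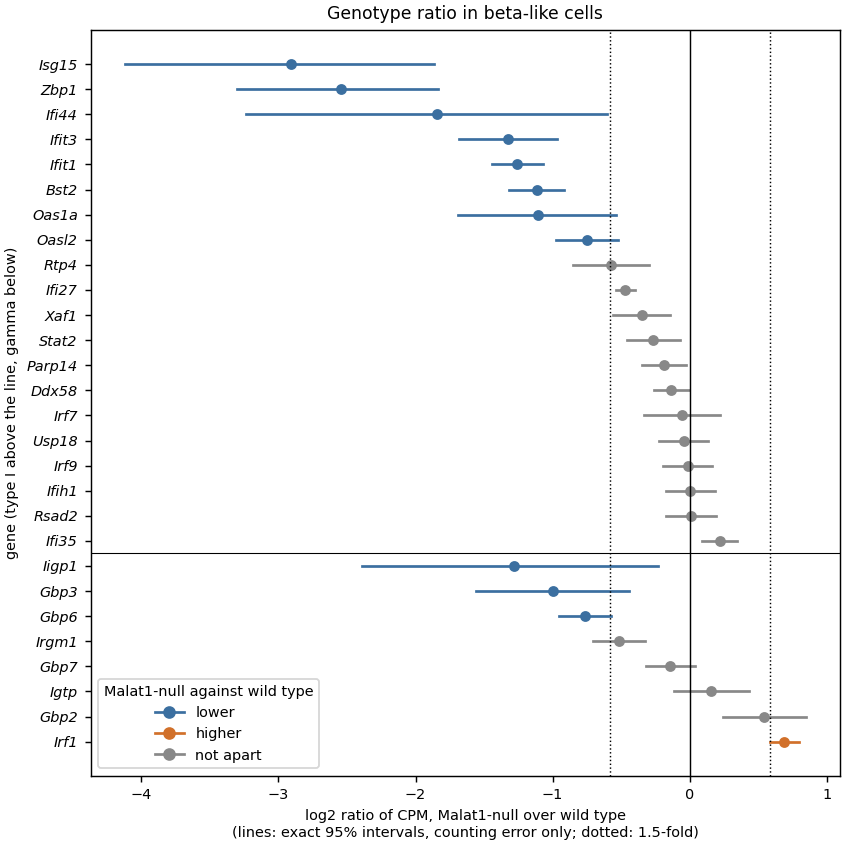
Log2 ratio of Malat1-null to wild-type CPM for each of the 28 members measured in beta-like cells, with exact 95% intervals (counting error only) and dotted lines at 1.5-fold. The 11 lower members run from Isg15 (-2.91) to Oasl2 (-0.75), Irf1 alone is higher (0.69), and Irf7, Irf9, Usp18, Rsad2 and Ifih1 lie between -0.06 and 0.01.

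The share of barcodes with a UMI was also taken. Among beta-like barcodes thinned to 10000 UMIs, 8.77% of 878 wild-type barcodes (6.98% to 10.8%) and 3.72% of 1693 Malat1-null barcodes (2.87% to 4.74%) held an Ifit1 UMI. For Bst2 the shares were 6.38% and 3.13%, and for Irf1 14.6% (12.3% to 17.1%) and 21.3% (19.4% to 23.4%). Gbp6 was seen in 6.72% and 3.96%, Oasl2 in 5.13% and 3.54% and Ifit3 in 1.82% and 0.945% of barcodes. For Isg15, Ifit3, Oasl2, Oas1a, Ifi44, Gbp3 and Iigp1, members lower in the sums, the exact intervals of these shares overlapped between the libraries. Barcodes of 1 library are not replicates. Few barcodes carried many type I UMIs: 68 wild-type barcodes (7.74%) and 42 Malat1-null barcodes (2.48%) had 5 or more, and the highest had 23 and 33. Without the 1% of beta-like barcodes with the most type I UMIs in each library, 10 and 18 barcodes, 10 members were lower and Irf1 was higher. Ifi44 then fell under 20 UMIs, and Ifit1 was 2.47-fold lower.

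**Figure D4:**
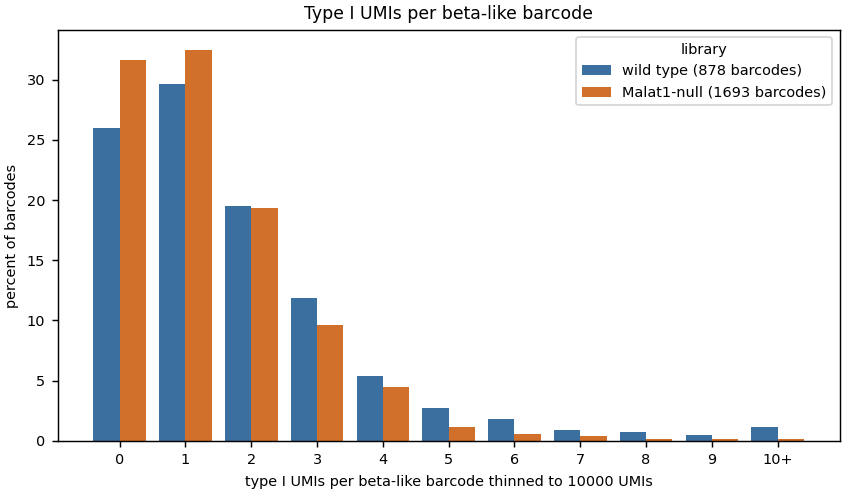
Percent of beta-like barcodes (vertical axis) with 0 to 9 or at least 10 type I UMIs (horizontal axis) after thinning to 10000 UMIs, for 878 wild-type and 1693 Malat1-null barcodes. No type I UMI was seen in 26.0% of wild-type and 31.6% of Malat1-null barcodes, and 1.14% of wild-type barcodes had 10 or more.

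Beta-like cells of the 2 libraries were spread over the same clusters in different proportions. The counts were therefore taken again within the 5 clusters with at least 50 barcodes of each library. The cluster led by Slc2a2 and Ppp1r1a held 12.2% of the wild-type and 36.1% of the Malat1-null barcodes of the class. The cluster led by Pdyn and Serpina7 with Ttyh1 held 51.8% and 19.7%. In this second cluster 8 of 27 members were lower, and 2 were higher (Irf1 and Gbp2). The 8 were Isg15, with 34 wild-type and 0 Malat1-null UMIs, Ifit1, Ifit3, Bst2, Oasl2, Oas1a, Rtp4 and Zbp1. In the cluster led by the immediate-early and NF-kB response genes Gem, Cebpd and Nfkbia, 6 of 24 were lower: Ifit1, Ifit3, Bst2, Oasl2, Gbp3 and Gbp6. In the cluster led by heat-shock genes (Hspa1a, Hspa1b), which held 14.3% and 3.66%, 5 of 20 were lower: Ifit1, Ifit3, Xaf1, Rtp4 and Gbp6. In the Slc2a2 cluster Ifit1 alone was lower. In the cluster led by Pdyn, Serpina7 and Angptl7, with 60 and 152 barcodes, none was.

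Ifit1 was lower within 4 of the 5 clusters, 1.57-fold to 2.50-fold, and its log2 ratio was 0.13 in the Angptl7 cluster. Irf1 was higher in 3 clusters, 1.67-fold to 1.82-fold, and not apart in the Gem cluster (ratio 1.45) and the heat-shock cluster (ratio 0.908, on 185 and 74 UMIs). Of the 5 clusters, its level was highest in the Gem cluster in both libraries, at 46.2 and 67.0 CPM. Rsad2, near equal over all beta-like cells, was 1.66-fold higher in Malat1-null in the Slc2a2 cluster and 2.59-fold higher in the heat-shock cluster. Of all genes, 2.87% were lower and 6.93% higher in the Slc2a2 cluster, 2.62% and 7.4% in the Angptl7 cluster, 2.95% and 5.66% in the Gem cluster, 10.6% and 3.6% in the heat-shock cluster, and 2.54% and 13.9% in the Ttyh1 cluster. Each cluster was scaled with the TMM factor of the whole beta-like class of its library, not with its own. The Slc2a2, Angptl7 and Ttyh1 clusters, in which Irf1 was higher, had the largest shares of all genes higher. The heat-shock cluster had the smallest. The part of the scaling in the calls of single clusters was not tested. The part of the difference in cluster makeup in the values over all beta-like cells was not tested either.

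Markers of other cells were compared in the same beta-like sums. Immune markers were low in both libraries: the 8 T or NK markers summed to 1.26 and 0.705 CPM, the 7 B cell markers to 8.64 and 17.5 CPM, and the 8 macrophage markers to 41.3 and 43.7 CPM. The B cell sum, on 350 and 1021 UMIs, was higher in Malat1-null, and the T or NK sum, on 51 and 41 UMIs, higher in wild type. The acinar and ductal sums also moved with genotype, both higher in wild type. The 9 acinar markers summed to 264 and 41.3 CPM and the 7 ductal markers to 1285 and 524 CPM. The 4 PP markers, at 433 and 178 CPM, moved the same way, and the 5 delta markers, at 7.41 and 17.8 CPM, the other way. Of the ductal markers, 3 were below 1 CPM in each library. The ductal list includes Spp1, a leading gene of a Pdyn and Serpina7 cluster at Leiden resolution 2 that scored closest to beta. The ductal sum may therefore not measure ductal RNA alone. Ifitm3, at 175 CPM in wild-type ductal-like cells, was at 0.222 CPM in wild-type beta-like cells. The part of RNA from such other cells in the lower levels of the members was not tested.

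Of the other genes of the pathway, 26 receptors, kinases, factors, sensors and ligands were followed, and 16 were measured in beta-like cells. None of the 16 was apart between genotypes there. In B cell-like cells Ifnar1, Jak1, Jak2, Irf2, Irf3 and Tmem173 were lower in Malat1-null, and in endothelial-like cells Ifngr2, Jak2 and Tmem173. Others apart were Tbk1 (higher, alpha-like), Myd88 (lower, PP-like), Irf8 and Jak2 (higher and lower, macrophage-like), Ifngr1 (lower, ductal-like) and Ifngr2 (lower, acinar-like). In mesenchymal-like cells 1 of the 7 pathway genes measured was higher and 2 were lower (Ifnar2 and Ifngr2). Ifnar1 was at 7.83 and 10.5 CPM, Ifnar2 at 35.4 and 28.0 CPM and Ifngr1 at 9.34 and 8.28 CPM. The interferon genes Ifnb1, Ifna4, Ifnl2 and Ifnl3 gave 0 UMIs in every class. Ifng gave 41 and 11 UMIs in T- or NK-like cells (21.5 and 15.3 CPM) and at most 1 UMI in any other class of either library. T- or NK-like cells were also the class with the highest summed level of interferon-gamma members.

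In T- or NK-like cells most members were not apart between genotypes, and most of those apart were higher in Malat1-null. Of 26 members measured, 5 were higher in Malat1-null and 1 was lower, against 2.78% and 7.65% of all genes. The other 20 were not apart. Bst2 was at 44.5 and 88.9 CPM, 2.00-fold higher (1.42 to 2.80), and Ifi35 at 25.1 and 55.6 CPM. Ifit1 was at 7.86 and 23.6 CPM, 3.01-fold higher (1.41 to 6.47), on 15 and 17 UMIs. Ifit3 and Gbp6 were also higher, on 17 and 16 and on 18 and 15 UMIs. With a minimum of 5000 UMIs, 2 members were higher and none lower, against 4.06% and 10.8% of all genes. Iigp1 was 2.91-fold lower (1.32 to 7.58), with 54 and 7 UMIs. The class held 2 T or NK clusters, and Bst2 was at 48.0 and 81.0 CPM in one and at 39.3 and 103 CPM in the other. Gbp6 was not alike in them, at 9.60 and 6.56 CPM (11 and 3 UMIs) in the first and at 9.18 and 45.7 CPM (7 and 12 UMIs) in the second. All but 1 of the Ifit3 UMIs lay in the second.

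B cell-like cells had 8 members higher and 1 lower in Malat1-null among 21 measured, against 12.1% and 8.9% of all genes. Bst2 was at 77.7 and 155 CPM, 1.99-fold higher (1.68 to 2.37), and Zbp1 was 2.11-fold higher (1.71 to 2.62), with 51 of its 334 Malat1-null UMIs in 1 barcode. Irf7, Gbp2, Gbp6 and Gbp7 were higher by 1.72-fold to 6.73-fold. Xaf1 and Usp18 were higher too, but 1 barcode gave 28 of the 67 Malat1-null Xaf1 UMIs and 1 gave 17 of the 35 Usp18 UMIs. Isg15 was the lower one, at 29.8 and 9.47 CPM, 3.15-fold (2.02 to 5.04), and was thus lower in both beta-like and B cell-like cells of the Malat1-null library. Free RNA, by the Ins2 bound, could make up to 0.341% of the wild-type and 12.0% of the Malat1-null B cell-like UMIs. In the Igkc and Jchain cluster, with 35 and 78 barcodes, Bst2 was at 127 and 204 CPM, and in the other, with 158 and 230, at 34.2 and 58.9 CPM. Irf7 was at 19.6 and 24.7 CPM in the first and at 2.38 and 12.6 CPM in the second (3 and 13 UMIs). Gbp2 was at 9.81 and 12.8 CPM and at 13.5 and 34.8 CPM, and Gbp7 at 12.5 and 21.7 CPM and at 11.9 and 37.7 CPM. The Malat1-null Gbp6, Usp18 and Xaf1 UMIs numbered 24, 32 and 52 in the first and 2, 3 and 15 in the second. The libraries held the clusters in different proportions, and the part of this in the ratios was not tested.

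In macrophage-like cells 3 of 10 members measured were higher in Malat1-null (Bst2, Zbp1 and Gbp2) and none was lower, against 10.1% and 5.2% of all genes. Zbp1 rested on 4 and 38 UMIs and Gbp2 on 5 and 35. At Leiden resolution 2 and with marker classes Bst2 alone was higher, and with total counts Isg15 was lower (log2 -1.48). The Ins2 bound on free RNA was 0.337% and 27.2% in these cells.

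Endothelial-like cells had 7 members lower and 2 higher among 24 measured, against 9.37% and 7.4% of all genes. Ifitm3 was 1.63-fold lower (1.47 to 1.82), from 1519 and 450 UMIs. Irf1 was at 85.6 and 32.1 CPM, 2.67-fold lower (1.79 to 4.11). Of the 8 interferon-gamma members measured 4 were lower: Irf1, Gbp3, Irgm1 and Iigp1, and 1 barcode gave 24 of the 41 wild-type Iigp1 UMIs. Xaf1, a pro-apoptotic partner of XIAP, and Parp14, an ADP-ribosyltransferase, were also lower. Ifi35 (1.60-fold, 1.05 to 2.41) and Rsad2 (2.07-fold, 1.07 to 3.98) were higher.

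Ductal-like cells gave 21 members measured and 3 lower in Malat1-null, against 7.39% of all genes, with none higher, against 1.88%. The Malat1-null sum rests on 17 barcodes. Ifit1 gave 121 wild-type UMIs, of which 57 came from 1 barcode, and 1 Malat1-null UMI. Bst2 was at 72.5 and 43.5 CPM, 1.67-fold lower (1.03 to 2.89), and Irf1 gave 109 and 1 UMIs. With classes from marker UMIs none of the 3 was apart and Ifitm3 was higher (log2 1.03), 1 of 18 measured, against 1.44% of all genes. The Bst2 call was also lost with 5000 UMIs, total counts and without hormone UMIs. In delta-like cells Ifit1 and Ifi27 were lower, 2 of 10 measured, against 3.03% of all genes, and none was higher, against 4.93%. No member was apart in alpha-like cells, where 7 were measured and 4.9% of all genes were higher and 4.24% lower, or in PP-like cells, where 9 were measured and the shares were 6.13% and 5.25%. In mesenchymal-like cells Bst2 was higher, 1 of 4 measured, and none was lower, against 11.8% and 10.9% of all genes. That Bst2 call was kept at Leiden resolution 2 alone of 5 alternatives. With total counts and without hormone UMIs it was lost, and Ifitm3 was lower (log2 -0.69 and -0.71), and with marker classes the Bst2 log2 ratio was -0.86, on 17 and 6 UMIs. In acinar-like cells Ifitm3 was lower, 1 of 4 measured, and none was higher, against 25.3% and 5.12% of all genes. With total counts the acinar-like call was lost, and without hormone UMIs Ifi27 was higher there (0.91) in its place. Of all genes, 39.1% were higher in acinar-like cells without hormone UMIs.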

How the data were processed

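Single-cell 3′ libraries (10x v3) of dissociated islets were used as the raw UMI counts per gene and barcode that the authors deposited. The submitters' processing notes name Cell Ranger 2.1.0 and mm10, while the deposited file headers name a Cell Ranger 4 output, so the version behind the counts is not settled. How reads shared by near copies were counted is not given in the sources used here, so members with such copies (Ifit1, Ifit3, Oas1a, Gbp2, Gbp6, Irgm1) are uncertain.

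Barcodes with at least 1000 UMIs were kept. Those over 20% mitochondrial UMIs (69 and 286) and Scrublet doublets (23 and 7) were removed. Scanpy 1.11.5 clustered the rest (2000 variable genes, 30 components, 15 neighbours, Leiden resolution 1) without the members. Clusters were named from marker lists, and the limits for naming were set after a first clustering was seen. UMIs were summed per class and library and scaled with TMM (edgeR 4.0.16 under R 4.3.3). Clusters within a class took the TMM factor of their class. Ratios have exact conditional 95% intervals and levels exact Poisson intervals. Against beta-like cells the rule was beyond 2-fold in both libraries, and between genotypes beyond 1.5-fold, each with an interval that excluded 1 and at least 20 UMIs. Barcodes under 100 UMIs served as the free RNA profile. Calls were tested on simulated Poisson counts. These held no spread between barcodes or libraries beyond counting error, so they cannot check the calls against such spread. UMI intervals cover counting error only. Members and lists were chosen with earlier results of these data known. The text accounts for every listed member. It gives values for members with at least 20 UMIs in beta-like cells, members apart between genotypes in any class, and the 3 with the highest ratio to beta-like cells in a class where those passed in both libraries. One gene of the pathway list is not reported here by name.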

Additional observations from a re-analysis of the deposited data

Results flagged for a closer look

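For 6 members the difference between Malat1-null and wild type had opposite signs in beta-like cells and in another class, each side beyond 1.5-fold. This gave 12 pairs of classes. The difference between classes was not tested, since each library is a single sample. As the log2 ratio in the other class minus that in beta-like cells, Bst2 gave 2.11 in T- or NK-like, 2.11 in B cell-like, 2.1 in macrophage-like and 1.90 in mesenchymal-like cells. Ifit1 gave 2.84 and Ifit3 2.64 in T- or NK-like cells. Gbp6 gave 1.91 in T- or NK-like and 3.52 in B cell-like cells. Zbp1 gave 3.62 in B cell-like and 4.38 in macrophage-like cells. Irf1 gave -2.11 in endothelial-like and -3.50 in ductal-like cells, the last on 1 Malat1-null UMI. In beta-like and B cell-like cells the calls of Bst2 and Zbp1, and in T- or NK-like cells that of Bst2, kept their direction with total-count scaling, without hormone UMIs, at Leiden resolution 2, with marker classes and with a minimum of 5000 UMIs. The mesenchymal-like side of the Bst2 pair was kept at Leiden resolution 2 alone of 5 alternatives. The ductal-like side of the Irf1 pair was lost with marker classes. On the macrophage-like side Zbp1 was lost at Leiden resolution 2 and with marker classes, and Bst2 was kept in all 5. In T- or NK-like cells Ifit1, Ifit3 and Gbp6 fell under 20 UMIs with a minimum of 5000 UMIs, and Ifit3 and Gbp6 were not apart with marker classes. In beta-like cells Gbp6 was not apart with 5000 UMIs and Irf1 was not apart with total counts.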

How the results depend on the processing

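In beta-like cells 11 members were lower in Malat1-null and 1 was higher. The lower count ran from 8 to 14 over the alternatives of depth, scaling, clustering, class naming, fold and UMI minimum. It was 14 with total-count scaling, where 10.1% of all genes were lower (6.01% before). The higher count was 2 with a minimum of 5000 UMIs, with Leiden resolution 2 and with classes from marker UMIs, and 0 with total-count scaling and with a ratio beyond 2-fold. In the settings that gave 2, the shares of all genes higher were 4.36%, 4.84% and 4.71%, in that order. With total-count scaling the share was 2.11% (3.81% before). Within single clusters, an alternative chosen after seeing the data, the lower counts were 1, 0, 6 and 5 in clusters 1 to 4, and the higher count was 2 in clusters 1 and 5. In T- or NK-like cells the genotype counts were 2 higher and 0 lower with 5000 UMIs and 2 lower with marker classes (5 and 1 before), and in endothelial-like cells 4 were lower with marker classes (7 before). Of all genes, 4.06% were higher and 10.8% lower in T- or NK-like cells with 5000 UMIs (2.78% and 7.65% before). With marker classes 5.60% were lower there, and 8.71% in endothelial-like cells (9.37% before). Members above beta-like cells were 9 in T- or NK-like cells with 5000 UMIs (14 before), 7 in B cell-like cells without hormone UMIs (11 before), 14 in macrophage-like cells with total counts (8 before), and 10 with total counts and 5 beyond 1.5-fold in endothelial-like cells (3 before). The shares of all genes moved too. They were 9.69% in T- or NK-like (13.6% before), 9.10% in B cell-like (15.6% before) and 13.7% in macrophage-like cells (7.96% before). In endothelial-like cells with total counts the share was 32.7% (14.8% before). The cause of these moves was not tested. In the small classes the counts of members lower and higher also turned: in ductal-like cells from 3 lower and 0 higher to 0 and 1 with marker classes, in mesenchymal-like cells from 0 and 1 to 1 and 0 with total counts and without hormone UMIs, and in acinar-like cells from 1 and 0 to 0 and 1 without hormone UMIs. For all genes the shares lower and higher were 4.17% and 1.44% in that ductal-like setting. In mesenchymal-like cells they were 15.4% and 7.31% with total counts and 16.0% and 7.17% without hormone UMIs. In acinar-like cells without hormone UMIs they were 0.983% and 39.1%.

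No paired analysis was possible because each genotype has 1 library with a matrix here, and the groups share fewer than 2 replicate numbers. Leaving out a library would leave no comparison. Depth limits the small classes: 7 members were measured in alpha-like, 9 in PP-like and 10 in macrophage-like cells between genotypes, and a member under 20 UMIs was given no call.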
